A study of Mus musculus with 3 samples.

Results

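The endoderm and the mesoderm of the mouse embryo at E7.5, the stage of gastrulation at which the 3 germ layers lie side by side, were compared by the RNA-seq of 1 library each. Both libraries came from embryos of ICR mice, and the labels name no treatment or allele. Embryos were taken from pregnant females, the embryonic region was separated from the extra-embryonic region, and the layers were parted with a trypsin and pancreatin digest, a Pasteur pipette and glass needles. The RNA of each layer was pooled over many embryos before sequencing, so each library is an average over embryos and the difference between them holds no replicate check. The members of the comparison are the genes with RPKM (reads scaled to the length of the gene and to the size of the library) above 5 in either library and an RPKM ratio above 2 in either direction. Genes missing from the table of a layer were given 0 reads. By this rule 2039 genes were members, of 17633 genes with a read in any of the 3 libraries of the series (the third is the epiblast). The endoderm side held 1279 of them and the mesoderm side 760. The level was reached by 8867 genes, so that 14.4% of the genes tested lay on the endoderm side, 8.57% on the mesoderm side and 23.0% on either. These shares are the background for every gene list below. All ratios are descriptions of 2 libraries, since no spread between replicates can be estimated.

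The endoderm at E7.5 is an epithelium that covers the outside of the embryo. It holds visceral endoderm, which takes up maternal proteins from the outer surface, digests them in lysosomes and secretes liver-type proteins, and definitive endoderm, which has newly come through the primitive streak and will line the gut. The mesoderm consists of cells that have left the epithelium of the epiblast through the streak. Such cells lose E-cadherin junctions, migrate as a loose mesenchyme between the outer and inner epithelia, and give rise to heart, blood, vessels, somites and body wall. The way of dissection does not part visceral from definitive endoderm. In a bulk library, fewer cells of a type and less RNA per cell cannot be told apart.

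The libraries held 41.7 M reads on genes in endoderm and 40.8 M in mesoderm, spread over 16385 and 16201 genes. Members had a median of 2117 reads in endoderm on the endoderm side and of 1971 reads in mesoderm on the mesoderm side, which leaves counting error small against most of the ratios. The exact (Clopper-Pearson) 95% interval of the ratio, computed from the read counts, lay wholly above 2 for 1155 genes of the endoderm side and 662 of the mesoderm side. These intervals cover counting error only, and sequenced fragments amplified by PCR are not independent molecules. Where the lower library had 3 reads or fewer, the fold was computed against 3 reads and is given as a lower bound. Genes whose exons overlap those of another gene are uncertain because no source used here states whether strand was used in counting. This applied to 351 members of the endoderm side and 196 of the mesoderm side.

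The 2 sides were not mirror images of each other. The median fold was 4.16 among the genes higher in endoderm and 3.06 among those higher in mesoderm. More than 10-fold were 372 genes (29.1%) of the endoderm side against 118 (15.5%) of the mesoderm side. More than 100-fold were 112 against 10, and above 1000-fold were 16 genes in endoderm and 0 in mesoderm. The endoderm side therefore held a set of genes that were nearly off in mesoderm. Its members were below RPKM 1 in mesoderm in 280 cases, and 48 of them had 3 reads or fewer there. On the mesoderm side, 96 genes were below RPKM 1 in endoderm and 2 had 3 reads or fewer. Members of the endoderm side took 18.8% of all endoderm reads and 3.39% of the mesoderm reads. Those of the mesoderm side took 6.78% of the mesoderm reads and 2.13% of the endoderm reads.

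**Figure D1:**
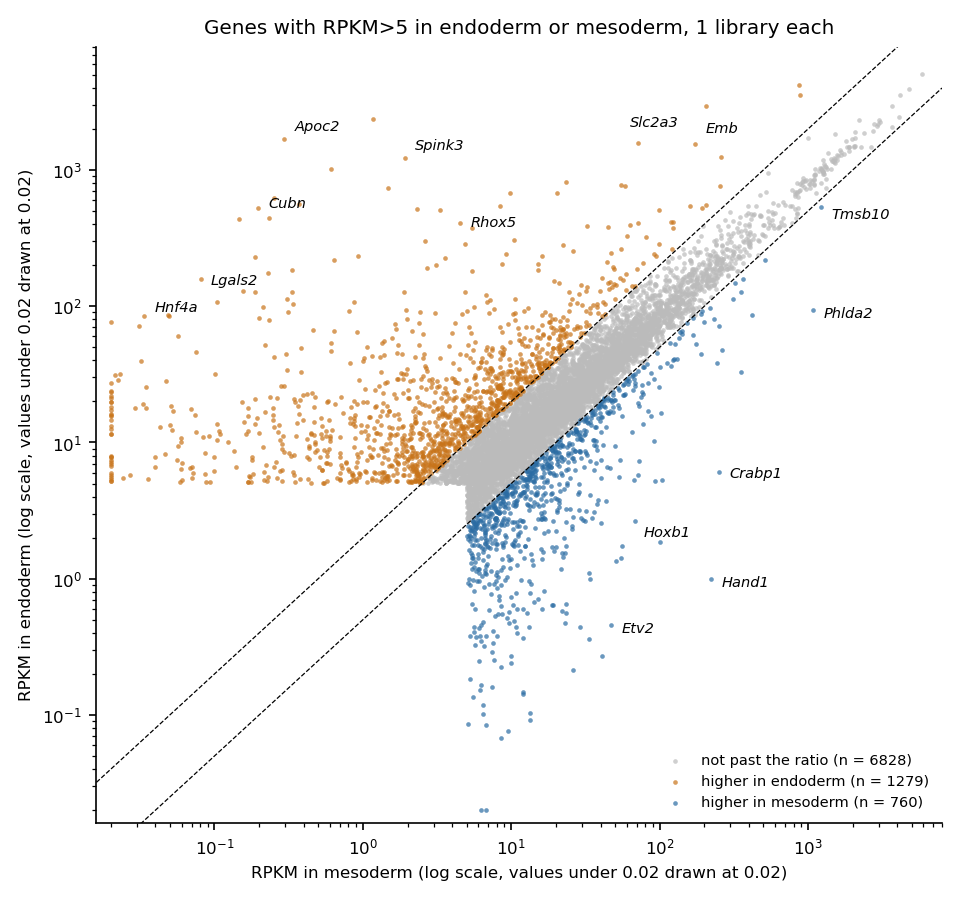
RPKM in endoderm (vertical) against RPKM in mesoderm (horizontal), both on log scales, for the 8867 genes above RPKM 5 in either library, with 1 point a gene and dashed lines at a ratio of 2 either way. The 1279 genes of the endoderm side spread far to the left, down to 0 in mesoderm, while most of the 760 genes of the mesoderm side lie close to the lower line.

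Many members were on in both layers and differed in degree. The lower library was itself above RPKM 5 for 504 genes (39.4%) of the endoderm side and 314 (41.3%) of the mesoderm side. The genes nearest the threshold show how fine the border is. *Lpar6* had an RPKM of 19.5 in endoderm and 9.75 in mesoderm and was counted, and *Lrrc1*, with 15.9 and 7.94, was not. On the other side *Gse1* (4.80 and 9.62) was counted and *Cdca4* (19.6 and 39.3) was not. With TMM scaling 108 genes of the mesoderm side were no longer members, since rescaling moves genes across the level as well as the ratio, and *Cox6b2*, *E2f1*, *Flna*, *Gata6*, *Gse1*, *Ldhb*, *Myo5a*, *Pfkfb3*, *Scd2*, *Slc38a1*, *Slc38a2*, *Slit3*, *Smad6* and *Zfp428* were among them. Over all genes tested the log2 ratio (endoderm over mesoderm) had a median of -0.10, and 60.0% of them differed by less than 1.5-fold.

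The labels of both libraries were checked against marker genes. All 10 mesoderm markers were higher in mesoderm, from *Twist1* at 9.56-fold and *Pdgfra* at 5.51-fold to *Hand1* at 221.9-fold. Of the 10 endoderm markers, 9 were higher in endoderm, from *Krt8* at 2.69-fold to *Cldn6* at 152.4-fold. The exception was *Hhex*, a homeobox gene of anterior endoderm, with an RPKM of 11.2 in endoderm and 5.74 in mesoderm (1.95-fold). The simple keratins *Krt8* and *Krt18* were still at 194.1 and 160.8 in mesoderm, so they marked the endoderm by degree and not by presence.

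Marker lists of other tissues were low or mixed. Of 6 epiblast and neural genes above RPKM 5, *Pim2* and *Utf1* were higher in endoderm and *Pou5f1* in mesoderm (36.4 in endoderm, 119.6 in mesoderm). The trophoblast list summed to an RPKM of 47.1 in endoderm and 251.1 in mesoderm, most of the latter from *Hand1*, which mesoderm also expresses. *Plac1* (19.9 and 6.25) and *Esx1* (7.11 and 0.0606) were on the endoderm side, while *Tpbpa*, *Prl2c2*, *Prl3d1* and *Rhox4b* had 0 reads in both. The parietal endoderm list summed to 600.8 and 372.9. Of its 11 genes above the level, *Col4a1*, *Col4a2*, *Srgn* (15.1 and 0.522) and *Plat* (13.1 and 5.95) were higher in endoderm and *Snai1* and *Stra6* in mesoderm, and 8 had a log2 ratio above 0. *Thbd*, below the level, had 0.149 in endoderm and 1.61 in mesoderm. The part of parietal endoderm or trophoblast cells in the endoderm library was not tested. Erythroid genes summed to 24.7 and 46.9, with *Hbb-y*, *Hba-x* and *Hba-a1* at 0. The decidua list summed to 2.68 in endoderm and 33.9 in mesoderm, mostly from *Hand2*, with *Prl8a2* at 0. The macrophage list summed to 2.02 and 1.34, with *Ptprc*, *Lyz2*, *Aif1* and *Cx3cr1* at 0.

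The 12 genes with the largest differences in RPKM on the endoderm side were of several kinds. *Fth1*, the heavy chain of the cytosolic iron store ferritin, was the largest of them, with an RPKM of 4214.7 in endoderm and 868.7 in mesoderm (4.85-fold). Besides it and the apolipoprotein genes, the 12 included *Slc2a3*, a high-affinity glucose transporter, with an RPKM of 1568.8 in endoderm and 71.3 in mesoderm (22-fold). *Emb* encodes embigin, a partner protein of monocarboxylate transporters, and had 1560.7 and 173.6 (8.99-fold). *Spink3*, a secreted trypsin inhibitor, went from 1.91 in mesoderm to 1215.9 in endoderm (635.2-fold, 452.1 to 923.0). The membrane-bound carbonic anhydrase *Car4* had 1250.9 and 260.9, and the lysosomal asparaginyl protease *Lgmn* 811.4 and 23.4. Apart from ferritin, the products of the genes named here are known from the cell surface, the lysosome or the secreted fluid.

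Plasma proteins of the kind made by liver and yolk sac lay mostly on the endoderm side. Of 30 listed, 10 had RPKM above 5, 8 of them were higher in endoderm and 0 in mesoderm, with a median log2 ratio of 7.84. The retinol carriers *Ttr* (RPKM 1012.5 in endoderm, 0.613 in mesoderm) and *Rbp4* (738.5 and 1.48) were followed by transferrin, *Trf*, with 176.4 and 0.231. *Ambp*, the precursor of a protease inhibitor chain, had 1129 reads in endoderm and 0 in mesoderm, which makes it at least 369.1-fold higher. *Igfbp4* (126.4 and 135.0) and *Igfbp2* (57.4 and 45.4), binding proteins of insulin-like growth factors, did not pass the ratio. The list thus held a group that was nearly absent from mesoderm, and *Igfbp4* and *Igfbp2*, which were not. Another gene of that family, *Igfbp1*, was on the endoderm side.

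Lipoprotein genes followed the same pattern. Of 18 apolipoprotein and lipoprotein assembly genes above the level, 15 were higher in endoderm and 1 in mesoderm, with a median log2 ratio of 6.42. *Apoc2* had the largest ratio of all members, with 46782 reads in endoderm and 8 in mesoderm (5734.8-fold, 2910.3 to 13284.2). *Apob*, the structural protein of large lipoproteins, had an RPKM of 618.3 and 0.251, and *Mttp*, which loads lipid onto it, had 189.5 and 2.71.

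Clotting and fibrinolysis genes gave 11 on the endoderm side and 0 on the mesoderm side of 13. The 3 fibrinogen chains led them, and *Fgb* had an RPKM of 71.1 in endoderm with 2 reads in mesoderm (at least 1525.0-fold). Plasminogen, *Plg*, had 2264 reads in endoderm and 0 in mesoderm. Iron genes gave 6 and 0 of 10. *Fth1*, on the endoderm side, carried most of the summed level of the list in endoderm (6214.8) but not in mesoderm (1931.5). In mesoderm *Ftl1* was higher than *Fth1*. The exporter *Slc40a1* (16.7 and 0.217, 76.8-fold) and the haem oxygenase *Hmox1* (38.6 and 16.1) were on the endoderm side. Ferritin light chain *Ftl1* (1710.3 and 995.8) and the transferrin receptor *Tfrc* (16 and 22.2) did not pass.

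Genes of uptake from the outer surface lay almost wholly on the endoderm side. Of 18 endocytic receptor and brush border genes above the level, 17 were higher in endoderm and 1 in mesoderm, with a median log2 ratio of 5.77. *Cubn* encodes cubilin, a giant receptor for vitamin-binding and lipid-binding proteins, and had 247454 reads in endoderm and 91 in mesoderm (2666.8-fold, 2171.9 to 3312.3). Its membrane partner *Amn* had an RPKM of 219.0 and 0.639. The endocytic adaptor *Dab2* had 683.5 and 20.2 and *Lrp2*, megalin, 41.7 and 2.55. The microvillus proteins *Vil1* (99.1 and 0.212) and *Ezr* (256.5 and 26.1) were on the same side. *Anpep*, a surface aminopeptidase that is a brush border enzyme in other tissues, was the exception, with 2.0 in endoderm and 22.6 in mesoderm.

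The path from the surface to the lysosome showed the same direction at a smaller size. Of 34 lysosomal genes above the level, 25 were higher in endoderm and 0 in mesoderm, with a median log2 ratio of 1.84. Cathepsins, the proteases of this organelle, gave 6 and 0 of 8, led by *Ctsl* (773.8 and 54.6), *Ctsh* (519.9 and 2.32) and *Ctsz* (385.0 and 32.6). *Lamp1*, a structural protein of the lysosomal membrane, differed less than these cathepsins, with 376.3 and 122.7 (3.07-fold). *Tfeb*, a transcription factor known for switching on lysosomal genes, had an RPKM of 21.4 in endoderm and 0.478 in mesoderm (44.9-fold, 33.5 to 61.5). *Psap*, the precursor of sphingolipid activator proteins, had 51.2 and 69.7 and did not pass, so the list did not move as a whole.

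Further families along this path were picked after their values had been seen and are given as counts. Subunits of the vacuolar proton pump, which acidifies endosomes and lysosomes, had 10 of 15 on the endoderm side and 0 on the mesoderm side, and all 15 had a log2 ratio above 0. The catalytic subunit *Atp6v1a* had an RPKM of 76.4 in endoderm and 18.0 in mesoderm, and *Atp6v0b* had 128.3 and 24.3. Sorting nexins and the retromer, which return receptors from endosomes, gave 9 and 0 of 25. Its core parts *Vps35* (131.2 and 59.0) and *Vps26a* (67.1 and 15.2) passed, and *Snx5* (144.0 and 169.7) did not. Clathrin and adaptor subunits gave 6 and 1 of 24, with the heavy chain *Cltc* at 322.4 and 80.4 (4.01-fold) and the light chain *Clta* at 208.7 and 162.6. Rab GTPases, the identity switches of membrane compartments, gave 10 and 3 of 37. *Rab5c* (155.4 and 56.8) and *Rab11a* (71.2 and 23.7), of early and recycling endosomes, were higher in endoderm, and *Rab34* (9.54 and 24.6) and *Rab23* (5.44 and 12.1) in mesoderm.

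By contrast, the general secretory pathway was much less uneven. Of 38 genes above the level, 8 were higher in endoderm and 0 in mesoderm (21.1%, against 14.4% of all genes), with a median log2 ratio of 0.47. The large chaperones *Calr* (943.8 and 540.2) and *Hspa5* (469.0 and 382.2) did not pass. The members that did included the stress-response factor *Xbp1* (69.9 and 29.3) and *Creb3l3*, a membrane-bound factor known from liver, with 2971 reads in endoderm and 2 in mesoderm (at least 971.2-fold). The 8 also held *Pdia5*, *Kdelr3*, *Creb3l1*, *Edem1*, *Sec11c* and *Eif2ak3*.

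**Figure D2:**
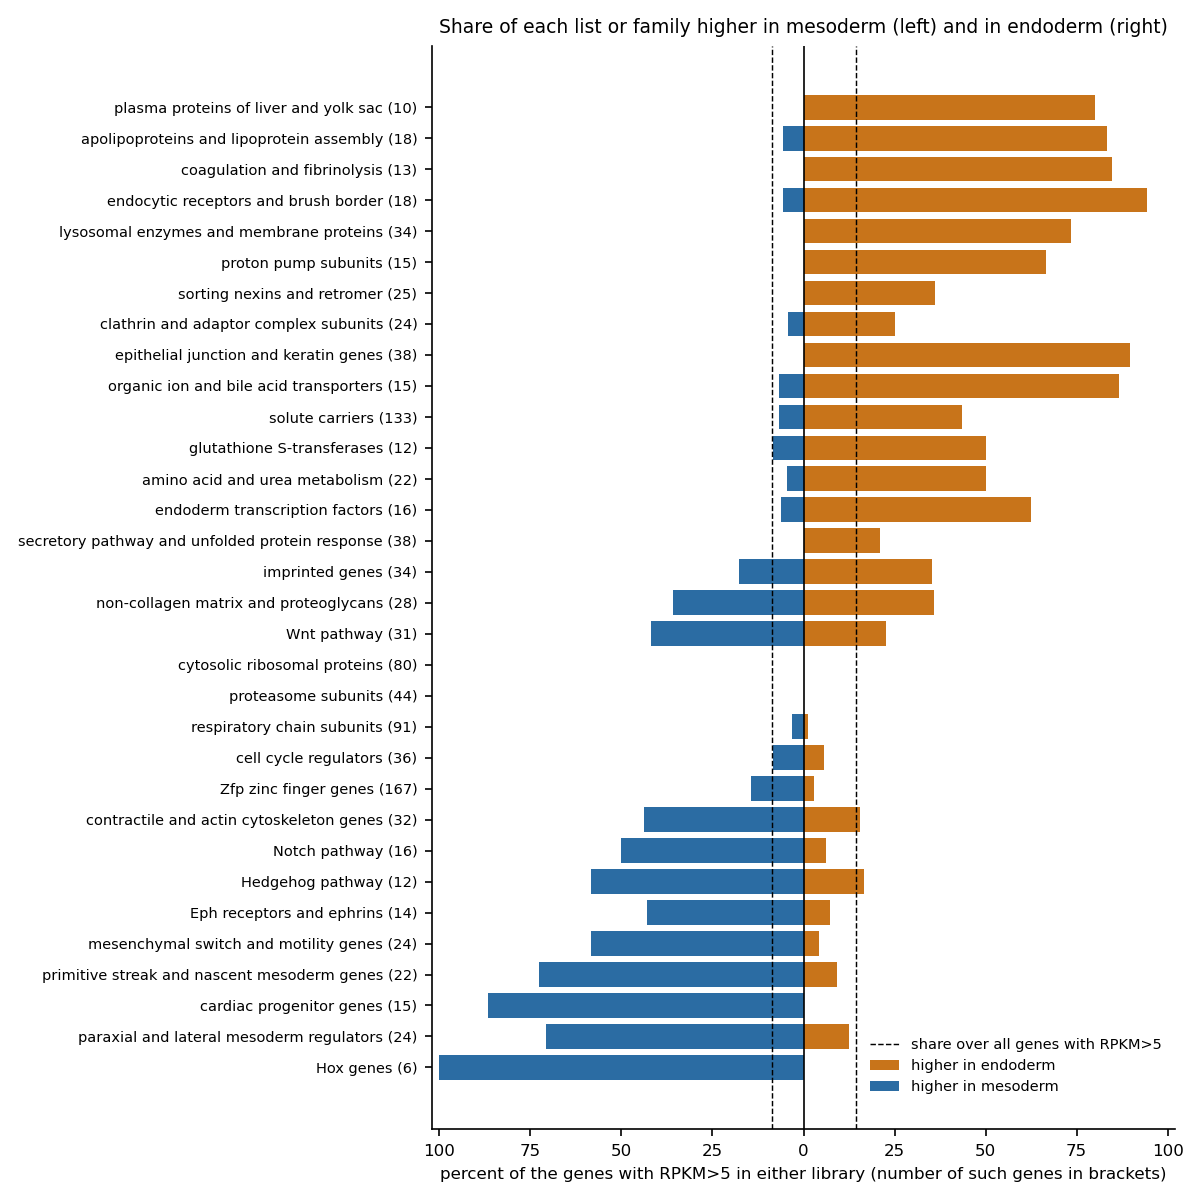
Percent of the genes with RPKM above 5 that were higher in endoderm (right) and in mesoderm (left) in lists and families, with the number of such genes in brackets and dashed lines at the shares over all genes (14.4% and 8.57%). Uptake, lysosomal, epithelial and plasma protein genes reach far to the right, streak, cardiac and Hox genes to the left, and ribosomal and proteasome genes have no member on either side.

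Membrane transporters formed a large family on the endoderm side. Of 133 solute carriers above the level, 58 (43.6%) were higher in endoderm and 9 (6.77%) in mesoderm. Carriers of organic ions and bile acids gave 13 and 1 of 15. *Slc16a1*, a monocarboxylate transporter, had an RPKM of 761.7 in endoderm and 58.8 in mesoderm, and the sulfate transporter *Slc13a4* had 303.6 and 2.62 (115.8-fold, 104.5 to 128.7). The mesoderm exception was *Slc16a3*, also a monocarboxylate transporter, with 35.7 and 101.3. Zinc transporters gave 6 and 1 of 16. *Slc39a5* had 7242 reads in endoderm and 4 in mesoderm (1775.5-fold), *Slc39a4*, the intestinal importer, had an RPKM of 65.8 and 2.13, and *Slc39a6* was higher in mesoderm (4.36 and 12.1).

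Amino acid carriers were found on both sides. Of 21 above the level, 9 were higher in endoderm and 5 in mesoderm. The heavy chain *Slc3a2* (147.2 and 45.1) and its light-chain partners *Slc7a8* (103.1 and 0.337) and *Slc7a7* (91.6 and 5.0) were on the endoderm side, and so was *Slc7a9* (32.1 and 0.102), a cystine transporter subunit of kidney. On the mesoderm side were the sodium-coupled carriers *Slc38a1* (11.3 and 24.1), *Slc38a2* (28.4 and 59.3) and *Slc38a4* (7.29 and 72.8), which lie next to each other in a run of 3 genes on chromosome 15. The taurine carrier *Slc6a6* (20.4 and 44.9) was there too, while *Slc7a5* (33.3 and 22) did not pass. The 3 carriers of the run belong to the class known as system A, and *Slc38a7* and *Slc38a6*, of the same family, were on the endoderm side.

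ABC transporters gave 7 and 1 of 16. *Abcc2*, an export pump of bile canaliculi, had 3916 reads in endoderm and 4 in mesoderm (960.1-fold), and *Abcg2* had an RPKM of 69.0 and 27.7, while *Abcc1* was higher in mesoderm (3.72 and 8.84). Water channels gave 3 and 0 of 3, with *Aqp3* at 44.9 and 0.305. Among carbonic anhydrases, *Car7* (183.9 and 0.334) joined *Car4* and *Car2* (105.9 and 27.6) on the endoderm side and *Car3* (1.64 and 15.9) lay on the mesoderm side. Of the sodium pump, the beta subunit *Atp1b1* (127.7 and 1.88) was higher in endoderm, and *Atp1b2* (1.55 and 23.0) was higher in mesoderm. These last 3 families were also chosen after their values had been seen.

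Metabolic genes divided by pathway and not as a block. Amino acid metabolism gave 11 and 1 of 22. The glycine cleavage genes *Gldc* (205.6 and 8.60, 23.9-fold) and *Amt* (90.8 and 16.9) and all 3 genes of serine synthesis were on the endoderm side, with *Phgdh* at 195.2 and 48.1, *Psph* at 72.8 and 16.1 and *Psat1* at 139.8 and 68.3. Glutamine synthetase, *Glul*, had 415.8 and 122.5. Within the urea cycle, *Ass1* (75.4 and 2.40) and *Asl* (43.1 and 14.6) were higher in endoderm, and *Arg1*, arginase, in mesoderm (2.47 and 7.68).

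Fatty acid genes gave 13 and 5 of 31, and the members of each side were of several kinds. Oxidation genes such as *Acadm* (63.3 and 30.9) and *Acaa2* (33.6 and 12.3) were higher in endoderm, together with the desaturase *Scd1* (19.3 and 9.05) and the elongase *Elovl1* (49.7 and 19.1), while *Hadha* (39.4 and 42.4), an oxidation gene, did not pass. The desaturases *Fads1* (7.07 and 37.1) and *Fads2* (10.3 and 91.5, 8.89-fold), the elongase *Elovl6* (6.03 and 18.0) and *Scd2* (66.3 and 142.0) were higher in mesoderm, and the synthase *Fasn* (37.8 and 60.5) did not pass. Glycolysis and glucose transport gave 5 and 4 of 27, and 5 and 1 with TMM scaling or DESeq2's size factors. The liver-type glucose transporter *Slc2a2* (107.6 and 0.105) was on the endoderm side, *Ldhb* (45.1 and 96.7) and *Pfkfb3* (3.64 and 7.82) on the mesoderm side, and the general glucose transporter *Slc2a1* (540.6 and 395.7) on neither. Cholesterol synthesis gave 4 and 2 of 23, with a median log2 ratio of 0.00.

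Detoxification genes leaned to the endoderm, with 9 and 1 of 23. The metallothioneins *Mt1* (682.7 and 9.83, 69.5-fold) and *Mt2* (540.6 and 8.37) bind zinc and copper and lie next to each other. The secreted peroxidase *Gpx3* had 381.0 and 44.7, and *Gpx8*, a peroxidase of the endoplasmic reticulum, was the mesoderm exception (9.78 and 25.5). Glutathione S-transferases gave 6 and 1 of 12, with *Gstm1* at 91.8 and 12.2. *Sod1* (452.7 and 347.2) and *Gstp1* (146.5 and 143.6) did not pass. The *Gstm* genes and the *Akr1c* genes are close paralogues, and their uniquely mapped reads are uncertain.

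Epithelial genes lay on the endoderm side with few exceptions. Of 38 junction and keratin genes above the level, 34 (89.5%) were higher in endoderm and 0 in mesoderm, with a median log2 ratio of 3.66. E-cadherin, *Cdh1*, had an RPKM of 181.2 in endoderm and 5.44 in mesoderm (33.3-fold, 31.3 to 35.5), *Epcam* 111.6 and 7.22, and the claudins *Cldn6* (507.3 and 3.33) and *Cldn7* (106.7 and 0.878). *Tmprss2* (128.3 and 0.332) and *Spint2* (113.7 and 10.7), a surface protease and a protease inhibitor, belong to the same list. *Tjp1*, a scaffold that mesenchymal cells also use, had 49.7 and 40.6 and did not pass. Of the 34, 24 were above RPKM 5 in epiblast, *Cdh1* (155.6) and *Epcam* (94.7) among them, and 10 were not, such as *Tmprss2* (1.25).

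Mesenchymal genes took the opposite side. Of 24 above the level, 14 were higher in mesoderm and 1 in endoderm, with a median log2 ratio of -1.43. The repressors *Snai1* (5.27 and 67.3), *Snai2* (0.0922 and 13.4, 144.9-fold) and *Zeb1* (0.165 and 6.27, 37.9-fold), which switch off junction genes, were all higher in mesoderm. N-cadherin, *Cdh2*, had 19.4 and 71.8, and *Vim*, the intermediate filament vimentin, had 38.4 and 243.9. P-cadherin, *Cdh3*, was the endoderm exception (13.3 and 4.57), and fibronectin, *Fn1*, with 181.2 and 337.1 (1.86-fold), did not pass.

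**Figure D3:**
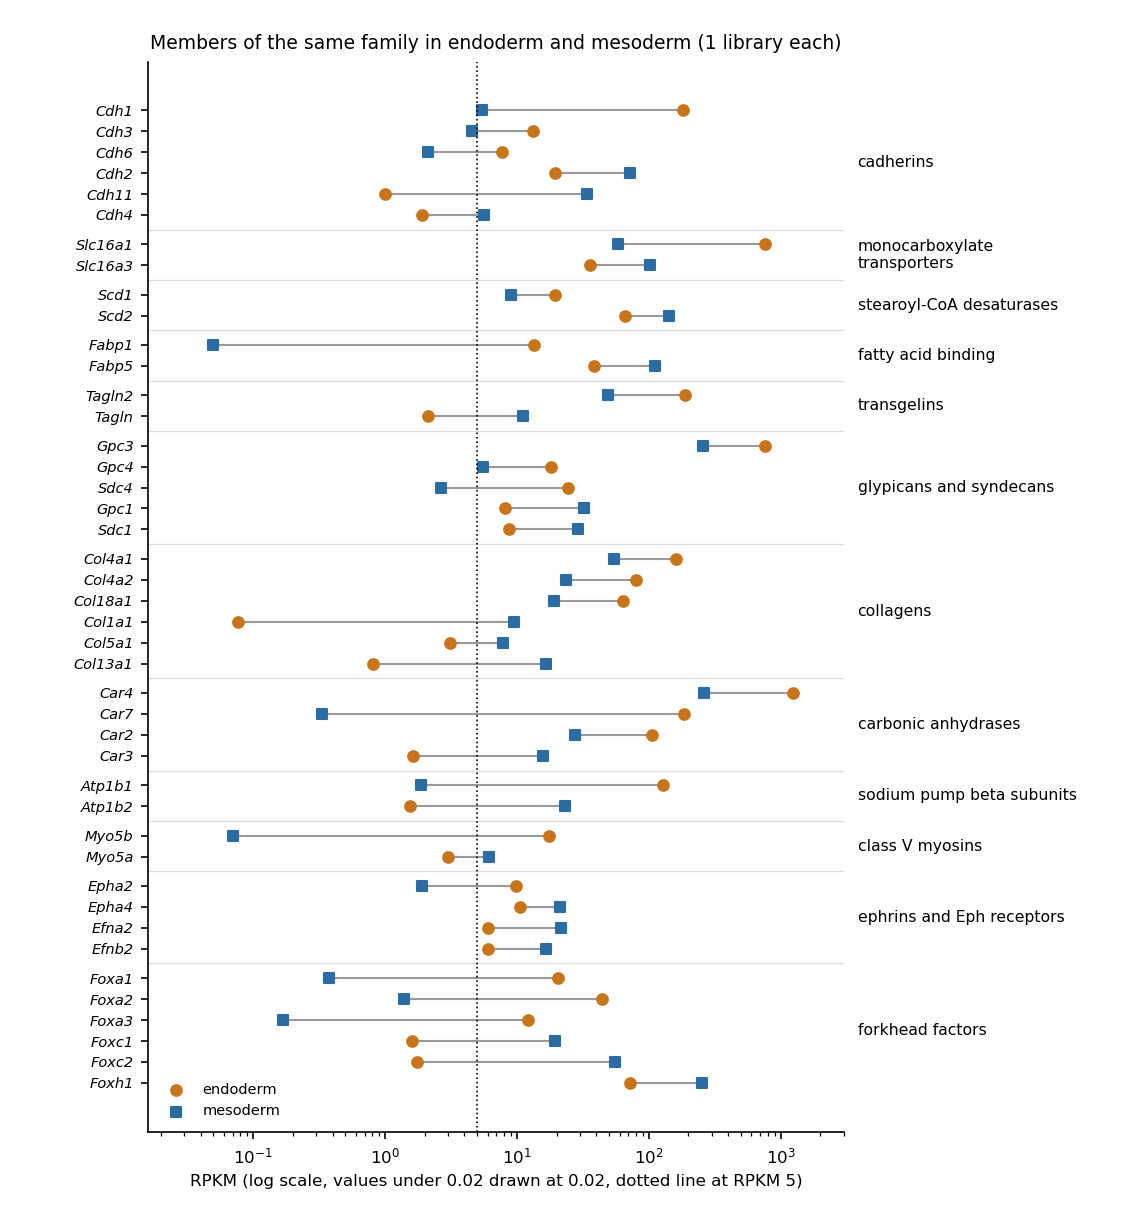
RPKM in endoderm (circles) and mesoderm (squares) on a log scale for members of 12 gene families, 1 library a layer, with a dotted line at RPKM 5. In each family some members lie higher in endoderm and others higher in mesoderm, such as *Cdh1* against *Cdh2*, *Slc16a1* against *Slc16a3* and *Col4a1* against *Col1a1*.

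Families of adhesion and matrix genes were split between the layers member by member. Among 8 collagens above the level, the basement membrane chains *Col4a1* (160.4 and 54.4), *Col4a2* (79.9 and 23.6) and *Col18a1* (64.1 and 19.1) and the notochord collagen *Col2a1* (11.5 and 1.70) were higher in endoderm. *Col13a1* (0.811 and 16.5), *Col23a1* (4.34 and 13.5), *Col5a1* (3.13 and 7.83) and *Col1a1* (0.0765 and 9.51, 124.4-fold) were higher in mesoderm, so that all 8 were members. The laminin chain *Lama5* (23.1 and 3.49) was on the endoderm side and *Lama4* (0.183 and 5.30), a chain of vessels and muscle, on the mesoderm side, whereas *Lamb1* (62.2 and 34.8), their shared partner, did not pass. Non-collagen matrix genes gave 10 and 10 of 28. *Gpc3* (763.7 and 255.5), *Nid2* (112.7 and 25.6) and *Agrn* (83.6 and 22.3) were higher in endoderm, and *Vcan* (1.42 and 12.2), *Has2* (3.50 and 12.9), *Gpc1* (8.10 and 32.4) and *Pcolce* (1.44 and 22.3), which processes fibrillar collagen, in mesoderm.

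Among guidance and contact genes, protocadherins, Eph and ephrin genes and Slit, Robo and Unc5 genes leaned to the mesoderm. Semaphorins and plexins leaned to the endoderm. Protocadherins gave 1 and 5 of 6, with *Pcdh1* (55.7 and 1.39) in endoderm and *Pcdh19* (0.657 and 23.4, 35.6-fold), *Pcdh18* and *Pcdh8* in mesoderm. Eph receptors and ephrins gave 1 and 6 of 14, where *Epha2* (9.77 and 1.91) was higher in endoderm and *Efna2* (5.99 and 21.6) and *Efnb2* (6.02 and 16.7) in mesoderm. With TMM scaling their counts were 3 and 5. Where edgeR was given a biological variation of 0.4 they were 1 and 0, so the larger side turned. The netrin receptor *Unc5c* (0.240 and 9.94), *Robo1* (8.41 and 31.9) and *Slit3* (4.76 and 9.62) were on the mesoderm side. Among semaphorins and plexins, 4 class 4 genes were higher in endoderm, *Sema4b* (16 and 4.69) among them, and the receptor *Plxnd1* (2.09 and 6.66) higher in mesoderm. With RPKM above 1 the counts were 4 and 5, so the larger side of this family turned with the level.

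Cytoskeletal genes gave 5 and 14 of 32. *Marcksl1* (218.0 and 512.3), *Cnn3* (97.3 and 217.4), *Flna* (65.2 and 137.4) and the smooth muscle actin *Acta2* (0.148 and 12, 80.8-fold) were higher in mesoderm. *Tagln2* (187.6 and 48.9) and the bundling protein *Lcp1* (58.1 and 1.57) were higher in endoderm. Unconventional myosins gave 4 and 1 of 11, with *Myo6* at 53.4 and 0.610, *Myo7a* at 19.9 and 1.0 and *Myo5b* at 17.6 and 0.0700 (252.1-fold) on the endoderm side and *Myo5a* (3.01 and 6.13) on the mesoderm side. *Tmsb10*, an actin-monomer binding protein, had the second-largest RPKM difference of the mesoderm side with 536.3 and 1222.9 (2.28-fold), and *Fscn1*, which bundles actin in protrusions, had 128.1 and 351.2.

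Several transcription factors of the endoderm side were nearly off in mesoderm. Of 16 endoderm factors above the level, 10 were higher in endoderm and 1 in mesoderm. *Hnf4a*, a nuclear receptor that drives liver-type genes, had 15342 reads in endoderm and 6 in mesoderm (RPKM 84.3 and 0.0336, 2507.6-fold, 1151.8 to 6834.2). The pioneer factors *Foxa1* (RPKM 20.5 and 0.376), *Foxa2* (44.0 and 1.39) and *Foxa3* (12.2 and 0.168) were all on this side. The GATA factors did not follow them. *Gata4* had 61.4 and 36 (1.70-fold), and *Gata6* had 15.0 and 31.2, 2.08-fold higher in mesoderm, a call that was lost when the libraries were scaled by TMM or by DESeq2's size factors.

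Anterior endoderm and organizer genes, which secrete or respond to inhibitors of Wnt, BMP and Nodal signals, gave 10 and 0 of 16. *Cer1* (137.9 and 47.4), *Dkk1* (36.1 and 8.43) and *Hesx1* (15.9 and 1.63) belong to anterior endoderm. *Foxj1* (42.1 and 2.25) and *Noto* (15.9 and 0.886), factors of the node and notochord, and *Chrd* (13.4 and 0.974) were higher in the endoderm library as well. Cells of the node lie in the outer layer at this stage, and their share in the library was not tested.

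Promoters of 8 members with large ratios are shown, 6 of them chosen because they hold letters marked here. In the *Etv2* promoter the only such letters are the CCAAT box. Those of *Cubn* and *Kdr* were chosen because they hold none of the letters marked here. All 8 were chosen after the matches were seen. RefSeq promoters (250 bases before to 50 after the start, GRCm38.p6) were matched for 1005 genes of the endoderm side and 557 of the mesoderm side. In the 5 promoters of the endoderm side below, capitals mark the HNF1 letters GTTAAT, the HNF4 letters GGNCAAAG or CAAAGTCCA, the letters TGTTTAC of FOXA factors, AGATAA of GATA factors and the core box letters TATAAA, on either strand. In the 3 of the mesoderm side, capitals mark the GATA and TATA letters, the T-box letters AGGTGTGA and the CCAAT box.
*Afp* promoter, chr5:90490464-90490763, plus strand: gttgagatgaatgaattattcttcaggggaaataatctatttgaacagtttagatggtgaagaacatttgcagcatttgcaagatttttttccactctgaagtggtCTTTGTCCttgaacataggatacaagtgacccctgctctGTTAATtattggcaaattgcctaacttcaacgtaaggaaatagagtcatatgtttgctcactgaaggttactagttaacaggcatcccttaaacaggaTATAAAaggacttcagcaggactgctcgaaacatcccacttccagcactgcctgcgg
*Hnf4a* promoter, chr2:163546905-163547204, plus strand: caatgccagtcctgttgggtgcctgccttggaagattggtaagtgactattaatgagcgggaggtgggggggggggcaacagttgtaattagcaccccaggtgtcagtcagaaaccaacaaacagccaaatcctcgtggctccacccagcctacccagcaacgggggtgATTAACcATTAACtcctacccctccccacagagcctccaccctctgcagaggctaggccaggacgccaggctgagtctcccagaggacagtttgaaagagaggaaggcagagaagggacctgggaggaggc
*Apoc2* promoter, chr7:19677892-19678191, minus strand: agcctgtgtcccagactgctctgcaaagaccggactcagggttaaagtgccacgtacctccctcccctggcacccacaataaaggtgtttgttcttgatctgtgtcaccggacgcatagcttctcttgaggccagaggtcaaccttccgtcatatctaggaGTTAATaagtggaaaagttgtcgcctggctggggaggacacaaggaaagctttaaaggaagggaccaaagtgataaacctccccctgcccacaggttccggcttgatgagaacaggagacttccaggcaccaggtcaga
*Fgb* promoter, chr3:83049814-83050113, minus strand: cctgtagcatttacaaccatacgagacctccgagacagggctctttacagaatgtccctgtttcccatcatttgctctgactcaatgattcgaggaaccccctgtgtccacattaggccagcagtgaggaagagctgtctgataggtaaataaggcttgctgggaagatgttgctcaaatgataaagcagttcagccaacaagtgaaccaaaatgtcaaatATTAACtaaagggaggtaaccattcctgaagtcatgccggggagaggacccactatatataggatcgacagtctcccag
*Cubn* promoter, chr2:13491827-13492126, minus strand: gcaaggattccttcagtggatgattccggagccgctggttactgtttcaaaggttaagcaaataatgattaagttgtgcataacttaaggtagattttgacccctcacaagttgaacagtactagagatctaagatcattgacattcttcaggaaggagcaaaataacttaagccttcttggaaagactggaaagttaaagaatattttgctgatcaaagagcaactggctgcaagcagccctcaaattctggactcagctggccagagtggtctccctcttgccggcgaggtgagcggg
*Hand2* promoter, chr8:57320733-57321032, plus strand: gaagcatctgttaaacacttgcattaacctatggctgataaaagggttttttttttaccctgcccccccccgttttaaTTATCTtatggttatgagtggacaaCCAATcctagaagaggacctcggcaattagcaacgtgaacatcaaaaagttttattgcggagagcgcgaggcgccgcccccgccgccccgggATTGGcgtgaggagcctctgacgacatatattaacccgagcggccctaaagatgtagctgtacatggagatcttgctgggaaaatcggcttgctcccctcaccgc
*Etv2* promoter, chr7:30635803-30636102, minus strand: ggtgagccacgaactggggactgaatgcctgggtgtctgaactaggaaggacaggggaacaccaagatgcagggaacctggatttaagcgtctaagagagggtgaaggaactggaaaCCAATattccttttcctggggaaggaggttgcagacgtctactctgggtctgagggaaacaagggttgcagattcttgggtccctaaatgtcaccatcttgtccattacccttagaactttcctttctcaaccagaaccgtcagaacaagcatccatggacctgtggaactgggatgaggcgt
*Kdr* promoter, chr5:75978406-75978705, minus strand: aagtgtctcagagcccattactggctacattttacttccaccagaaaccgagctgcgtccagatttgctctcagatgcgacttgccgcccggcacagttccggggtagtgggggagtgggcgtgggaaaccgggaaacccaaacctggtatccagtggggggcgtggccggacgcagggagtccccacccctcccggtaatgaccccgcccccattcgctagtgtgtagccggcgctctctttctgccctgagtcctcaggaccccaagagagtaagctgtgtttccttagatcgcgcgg
The *Afp* promoter held an HNF4 match 144 bases, an HNF1 match 105 bases and a TATA match 7 bases before the RefSeq start. The *Hnf4a* promoter printed here, the second of its 2 in RefSeq, held a pair of HNF1 matches, 81 and 74 bases before it. The promoters of *Apoa4*, *Apoa1*, *Cubn* and *Apom* held none of these letters, which says nothing about the factors.

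Over whole sets, the short HNF1 letters were more frequent in the steepest members. The letters GTTAAT stood in 20.9% of 110 promoters of genes more than 100-fold higher in endoderm, in 9.41% of those above 10-fold, in 6.05% of all of the endoderm side and in 4.70% of the mesoderm side. The whole palindromic HNF1 site stood in 0 of 1356 promoters of the endoderm side and in 3 of all promoters. Over all 32851 promoters the share was 7.10%, and over genes that did not pass the ratio it was 3.74%. GGNCAAAG gave 13.6%, 8.40%, 6.78% and 6.59% for the same 4 sets, with 5.62% over all promoters and 5.34% over genes that did not pass. TGTTTAC gave 8.18% above 100-fold, 3.65% over all and 2.47% over genes that did not pass. In that order, TATAAA gave 13.6%, 13.6% and 5.92%, and AGATAA 10.9%, 11.2% and 5.61%. The longer letters CAAAGTCCA stood in 0.737% of the endoderm side against 0.475% of all and 0.243% over genes that did not pass. T-box letters stood in 0.806% of the mesoderm side, 1.28% of all promoters and 0.571% over genes that did not pass. In that order, the E-box CANNTG stood in 61.4%, 72.3% and 59.3%, and CCAAT in 34.3%, 37.4% and 39.4%. Base composition moved with these shares. The median GC content was 52.5% in the promoters above 100-fold, 60.3% over the endoderm side, 63.3% over the mesoderm side and 61.7% over genes that did not pass, and 52.7% over all promoters. Its part in the shares was not tested.

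On the mesoderm side, the steepest members included transcription factors of lateral, cardiac and vascular progenitors. *Hand1* had an RPKM of 0.999 in endoderm and 221.7 in mesoderm (221.9-fold, 177.9 to 280.4). *Hand2* had 0.215 and 26.2, *Etv2*, which sets up blood and endothelial fates, 0.457 and 47.2 (103.3-fold), and *Tal1* 0.104 and 13.3. *Smarcd3*, a heart-enriched chromatin remodelling subunit, had 1.42 and 55.2, and *Tcf15*, of the early somite, 0.582 and 22. Among the 12 with the largest ratio was also *Pmp22*, known from the myelin sheath, with 1.85 and 100.9 (54.5-fold). These genes are known from several mesoderm lineages.

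Cardiac progenitor genes gave 13 on the mesoderm side and 0 on the endoderm side of 15, and 17 of 24 regulators of paraxial and lateral mesoderm were higher in mesoderm against 3 in endoderm. Contractile genes were already on, with *Myl7* at 5.33 in endoderm and 103.3 in mesoderm, *Tnni1* at 0.597 and 10.9 and *Tnnt2* at 0.160 and 7.45. The exceptions on the endoderm side included *Tbx3* (37.1 and 16.8) and *Hopx* (5.56 and 1.34). Blood and endothelial genes gave 7 and 2 of 11, of which *Lmo2* had 1.27 and 11, while *Ramp2* (24.1 and 11.8) and *Kit* (8.52 and 3.56) were higher in endoderm.

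Most primitive streak genes were higher in mesoderm. Of 22 above the level, 16 were higher in mesoderm and 2 in endoderm. *Mesp1* (1.36 and 50.5), *Lefty2* (2.56 and 40.2) and *Tbx6* (3.77 and 38.7) were on the mesoderm side. *T* (93.7 and 74.8) and *Eomes* (9.51 and 7.01), which both mesoderm and endoderm precursors express, did not pass. *Cited1* (281.5 and 22.2, 12.7-fold) and *Sp5* (28.8 and 14.1) were the endoderm exceptions.

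Hox genes lay on the mesoderm side. All 6 Hox genes above the level were higher in mesoderm, led by *Hoxb1* (2.67 and 68.5) and *Hoxb2* (0.442 and 29, 65.6-fold). *Meis2*, of another homeobox family, had 2.30 and 25.8. Forkhead genes were the split family, with 6 on each side of 20, since *Foxc2* (1.74 and 55.5) and *Foxc1* (1.60 and 19.5) faced the *Foxa* genes. Krüppel-like and Sp factors gave 4 and 0 of 12. Zfp zinc finger genes gave 24 on the mesoderm side and 5 on the endoderm side of 167, and 139 of the 167 had a log2 ratio below 0. Their differences were small, such as *Zfp428* at 18.4 and 38.6, and with a ratio above 4 the counts were 2 and 3.

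Hedgehog ligands were higher in endoderm and Hedgehog receptors and targets in mesoderm. In this pathway both ligands above the level were higher in endoderm, *Ihh* with an RPKM of 17.9 and 0.169 (106.2-fold, 66.1 to 182.7) and *Shh* with 7.82 and 0.180. The 7 genes on the mesoderm side were the receptor and target *Ptch1* (16.4 and 39.8), the co-receptors *Gas1* (1.70 and 20.1) and *Boc* (0.374 and 5.79), the factors *Gli1* (5.57-fold), *Gli2* (1.71 and 8.74) and *Gli3* (4.29 and 16.9) and the target *Foxf1a* (0.362 and 33.2). The transducer *Smo* had 38.6 and 76.1 and fell just short at 1.97-fold. The co-receptor *Cdon* and *Disp1* did not pass either. Of the 12 genes above the level, 10 had a log2 ratio below 0.

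Apelin signalling was arranged in the same way. The peptides Apela, listed under *Gm10664* (89.8 and 10.7, 8.43-fold), and *Apln* (21.4 and 1.68, 12.7-fold) were higher in endoderm, and their receptor *Aplnr* (16.6 and 101.5, 6.12-fold) in mesoderm. The VEGF receptor *Kdr* (0.272 and 40.8) and the PDGF receptors *Pdgfra* (11.9 and 65.3) and *Pdgfrb* (0.639 and 10.2) were higher in mesoderm, while *Vegfa* (31.9 and 16.2) was at 1.97-fold and did not pass. *Kitl*, the ligand of *Kit*, had 31.6 and 7.20, but its receptor was higher in endoderm too, so this pair did not share the arrangement.

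Retinoid genes gave 5 on each side of 14. The retinol carriers *Rbp4* and *Ttr* and *Bcmo1*, the enzyme that cleaves carotene (11.3 and 0.290), were higher in endoderm. The receptor for the carrier, *Stra6* (3.61 and 21), the synthesis enzyme *Aldh1a2* (5.20 and 93.7, 18.0-fold), the binding proteins *Crabp1* (6.12 and 252.2, 41.2-fold) and *Crabp2* (7.39 and 53.8) and the nuclear receptor *Rarg* (8.67 and 29.2) were higher in mesoderm. The degrading enzyme *Cyp26a1* had 45.1 and 25.9 and did not pass.

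**Figure D4:**
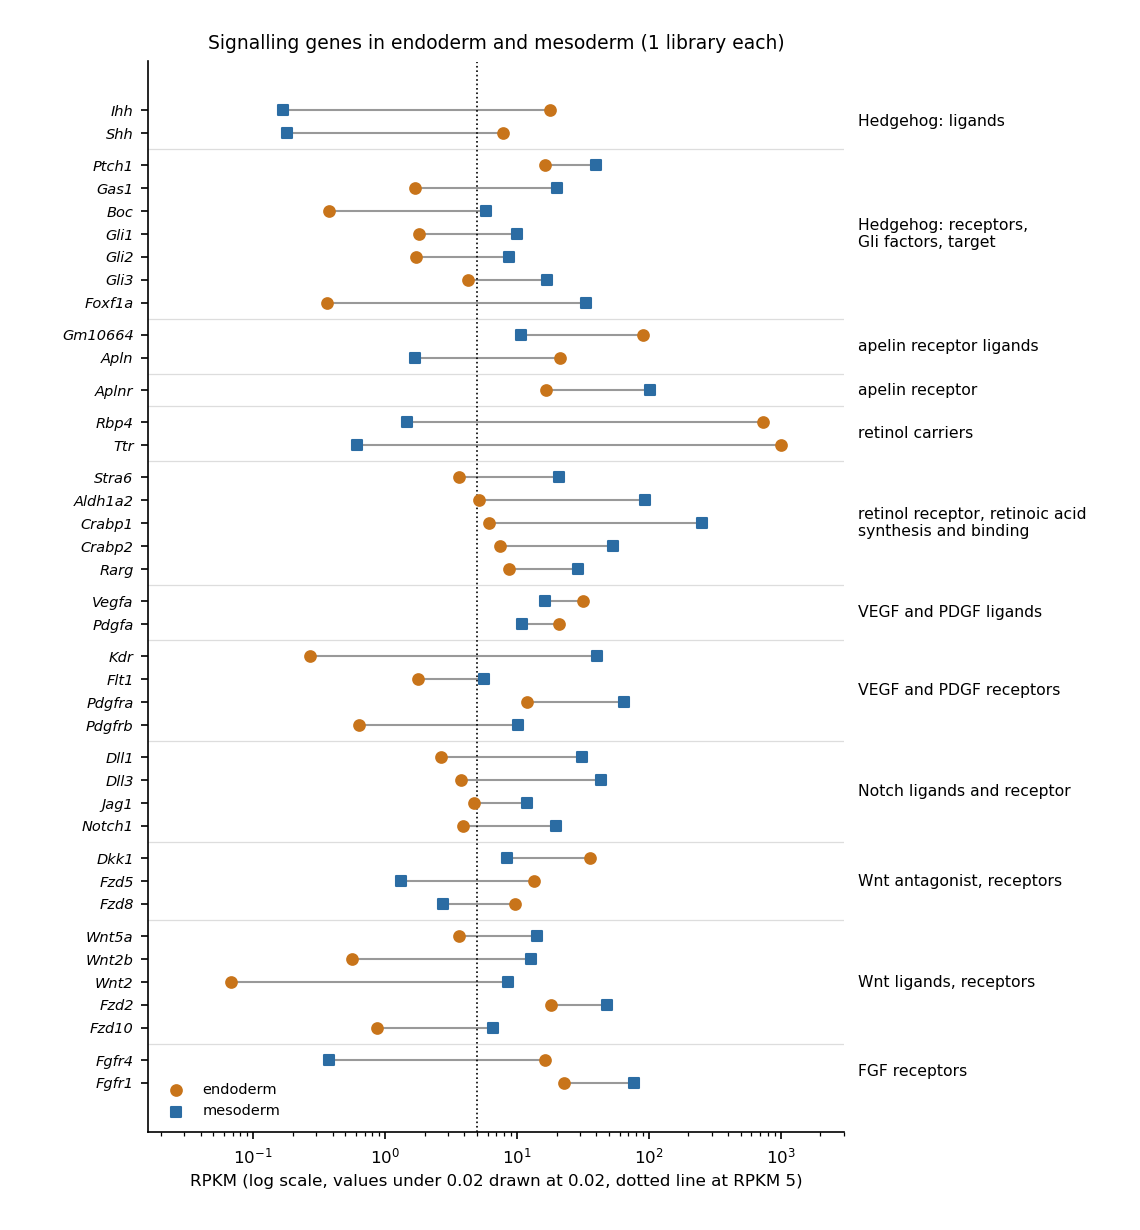
RPKM of signalling genes in endoderm (circles) and mesoderm (squares) on a log scale, 1 library a layer, grouped by role, with a dotted line at RPKM 5. Hedgehog ligands, apelin peptides and retinol carriers lie higher in endoderm, and the matching receptors, Gli factors and retinoic acid genes higher in mesoderm.

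Wnt, Notch, BMP and FGF genes showed more mixed patterns. Wnt genes gave 13 on the mesoderm side and 7 on the endoderm side of 31. *Lef1* (5.78 and 71.4), *Rspo3* (3.07 and 36.1) and the receptor *Fzd2* (18.2 and 48.2) were higher in mesoderm, and the receptors *Fzd5* (13.5 and 1.33) and *Fzd8* (9.74 and 2.77) and the co-receptor *Lrp5* (52.7 and 17.6) in endoderm. Notch genes gave 8 and 1 of 16 in favour of mesoderm, with the ligands *Dll3* (3.74 and 43.4) and *Dll1* (2.67 and 31.4) and the receptor *Notch1* (3.91 and 19.7), while *Nrarp*, a feedback target, was higher in endoderm (11.9 and 4.81). The BMP list gave 5 and 6 of 24, and the larger side turned with RPKM above 10 or a ratio above 4. *Bmp4* (1.11 and 33.6, 30.3-fold) was higher in mesoderm, but the response genes *Id1* (89.4 and 34.0) and *Id2* (66.8 and 22.1) were higher in endoderm. *Smad6* (8.85 and 18.7), an inhibitor that BMP induces, was higher in mesoderm, and *Id3*, *Msx1* and *Msx2* did not pass. FGF and ERK genes gave 9 on the endoderm side and 4 on the mesoderm side of 22. The receptors differed, with *Fgfr1* at 22.8 and 77.1, and *Fgfr4* at 16.2 and 0.374. *Klb*, a co-receptor that works with *Fgfr4* in liver, had 2279 reads in endoderm and 0 in mesoderm (at least 745.0-fold). The ligands *Fgf15* (0.557 and 23.3), *Fgf3* (0.476 and 23.1) and *Fgf8* (1.77 and 10.3) were higher in mesoderm, and *Fgf5* (6.64 and 2.19) in endoderm. The response genes *Etv5* (56.3 and 13.4) and *Spry1* (11.7 and 2.18) and the adhesion protein *Flrt3* (35 and 7.35) were on the endoderm side too.

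Genes for growth and general upkeep were almost without members. Cytosolic ribosomal proteins gave 0 on either side of 80, and the proteasome 0 of 44. Respiratory chain genes gave 1 and 3 of 91. The 4 exceptions were tissue-restricted forms, *Cox7a1* (12.5 and 3.36) in endoderm and *Cox6b2* (6.71 and 13.7), *Ndufa4l2* (0.974 and 11.6) and *Cox4i2* (0.693 and 8.28) in mesoderm. All 80 ribosomal genes, all 20 replication genes and all 28 SR and hnRNP genes were lower in endoderm. Of these only *Gins3* (replication) and *Hnrnph3* (SR and hnRNP) passed the ratio. The median log2 ratios were -0.32, -0.54 and -0.54 against -0.10 over all genes. With TMM scaling, which moves every ratio by 0.11, these medians were -0.20, -0.43 and -0.43 and that of all genes 0.01. Among cell cycle genes, *Ccnd1* (25.5 and 98.3), *Ccnd2* (17.8 and 53.4) and *E2f1* (7.20 and 14.7) were higher in mesoderm and *Cdkn2a* (21.1 and 0.264, 80.0-fold) and *Cdkn1a* (7.42 and 3.67) in endoderm, of 36 above the level.

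Imprinted genes gave 12 on the endoderm side and 6 on the mesoderm side of 34. The maternally expressed RNAs *Meg3* (34.6 and 6.66), *Rian* (212.5 and 43.9) and *Mirg* (35.3 and 7.22) and the paternally expressed *Dlk1* (23.7 and 9.73) form a run of 4 neighbouring members of the endoderm side on chromosome 12. *Nnat* (44.6 and 189.8) and *Ndn* (9.49 and 37.1) were higher in mesoderm, and *Peg10* (269.9 and 169.9) and *Igf2* (424.4 and 314.6) did not pass.

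Neighbouring members lay on the same side in several places. Runs of 3 or more consecutive genes above the level, all on the same side within 500 kb, numbered 33 in endoderm with 111 genes, and 4 in mesoderm with 14 genes (positions from RefSeq, GRCm38.p6). Known tandem clusters were among them. *Apoa1*, *Apoc3*, *Apoa4* and *Apoa5* lie at chr9:46228630-46271921 with folds from 129.8 to 2996.2, and the fibrinogen genes *Fgg*, *Fga* and *Fgb* at chr3:83007724-83049863. On the mesoderm side, *Hoxb6*, *Hoxb3*, *Hoxb2* and *Hoxb1* lie at chr11:96292814-96368254 with folds from 20.4 to 79.8, and *Mesp1*, *Mesp2* and *Anpep* at chr7:79792241-79848210. The latter places *Anpep*, the exception among the brush border genes, beside mesoderm regulators.

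The X chromosome held the highest share of members on both sides. Of its 311 genes above the level, 68 (21.9%) were higher in endoderm and 40 (12.9%) in mesoderm, against 14.2% and 8.39% of 8495 autosomal genes. Shares of single autosomes ran from 11.2% to 18.9% on the endoderm side and from 4.40% to 12.2% on the mesoderm side. The X-linked members of the endoderm side included *Rhox5*, a homeobox gene of the reproductive cluster (410.1 and 4.51, 91.0-fold), *Nrk* (92.3 and 0.801, 115.3-fold), *Amot* (325.9 and 60.5) and *Bex1* (504.6 and 99.7). A run of 6 of them, *Zfp185*, *Pnma5*, *Xlr4a*, *Xlr3a*, *Xlr5a* and *Xlr5b*, lies at chrX:72987252-73158886. The *Xlr* genes are close paralogues, so their uniquely mapped reads are uncertain. *Xist* had 13.4 and 11.3 and did not pass. These genes were named after their values had been seen.

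**Figure D5:**
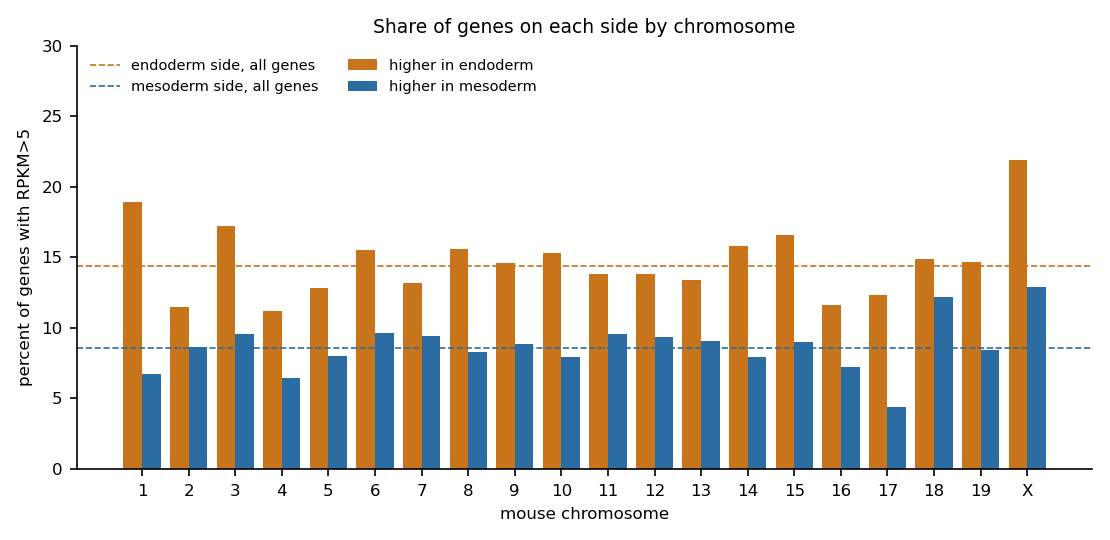
Percent of the genes with RPKM above 5 on each mouse chromosome that were higher in endoderm or in mesoderm, with dashed lines at the shares over all genes (14.4% and 8.57%). The X chromosome has the tallest bar of either side, 21.9% and 12.9%, and chromosome 17 the lowest mesoderm share, 4.40%.

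The epiblast values, given as a description without a comparison, lay mostly beside those of the mesoderm for genes of the endoderm side. On the log2 scale after adding 0.1, the epiblast RPKM was closer to the mesoderm value than to the endoderm value for 1057 of the 1279. For the mesoderm side it was closer to the endoderm value for 248 of 760. The median epiblast RPKM was 4.43 over the endoderm side, whose medians were 17.9 in endoderm and 3.38 in mesoderm. Over the mesoderm side it was 10.2, with medians of 14.3 in mesoderm and 3.90 in endoderm. *Hand1* was at 33.2 in epiblast, *Kdr* at 0.771 and *Cubn* at 0.126.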

How the data were processed

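The authors sequenced paired ends on an Illumina HiSeq and deposited, for each library and gene, the uniquely mapped read count, the percent of the gene covered, the gene length and the RPKM value. Per the labels, the processing notes name TopHat, mm9 and mm10. The annotation and strand setting behind the gene tables are not given in the sources used here. A gene absent from a table was given 0 reads. Ratios were taken from the deposited RPKM values, with exact 95% intervals from the deposited counts, in Python 3.11.15 (pandas 2.3.3, SciPy 1.17.1). With 1 library a layer no test of the layers was made. The members and gene lists were chosen with earlier results of these data known, and 10 families were chosen after their values were seen. Named by rule were, on each side, the 12 genes with the largest RPKM difference, the 12 with the largest ratio among those above RPKM 20, up to 4 members of each list with the highest RPKM, the highest listed gene that did not pass, the genes nearest the threshold and the marker genes. Other named genes were chosen after their values were seen. Symbols that a spreadsheet had turned into dates (24, of which 5 passed the ratio) are not named, and some listed genes are not reported here. Neighbours and promoters came from RefSeq (GRCm38.p6). The alternatives used edgeR 4.0.16 and DESeq2 1.42.0. The interval and calls were tested on simulated data, which says nothing about the spread between real libraries.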

Additional observations from a re-analysis of the deposited data

How the results depend on the processing

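The counts on the endoderm side, the mesoderm side and both, 1279, 760 and 2039 as reported, moved most with the thresholds. They were 1963, 1437 and 3400 with RPKM above 1, 3718, 3321 and 7039 with no level filter, and 661, 275 and 936 with a ratio above 4. With RPKM above 10 the mesoderm count was 498. Where edgeR was given a biological variation of 0.4 (as a coefficient of variation), they were 553, 182 and 735, and the endoderm share of the calls rose from 62.7% to 75.2%. Other scalings kept each count within 1.5 times. TMM gave 1459 and 652, DESeq2's size factors 1451 and 660, and upper quartile scaling 1205 and 846. TMM moved the median log2 ratio by 0.11, and 108 mesoderm genes were lost. With TMM 8 lists and families lost their larger side. The Bcl2 family turned (1 and 2 to 2 and 1), and the sides became equal in the PDGF and VEGF list (5 and 8 to 7 and 7), splicing regulators, cell cycle, Sox, GATA, replication and SR and hnRNP genes. The number was 7 with DESeq2, 1 with upper quartile scaling (BMP genes) and 2 with equal RPKM totals. Over all settings 17 lists and families turned, most of them under another level or ratio. No named member moved to the other side under any setting. Ratios close to 1 among named genes that did not pass, such as that of *Igfbp4*, can change sign with the scaling. No paired analysis was possible because each layer has 1 library, and for the same reason no library could be left out. The assumed variation is not an estimate from these samples.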

Other observations

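Replication-dependent histone genes, few of which reached RPKM 5, gave 2 on the endoderm side and 17 on the mesoderm side when the level was set at RPKM above 1. At RPKM above 5 the counts were 1 and 0 of 5. Their transcripts mostly lack a poly(A) tail, and close copies share reads, so these values are uncertain.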
